A study of Mus musculus with 2 samples.

Results

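The genes described here encode the NF-kappaB transcription factors and the proteins that restrain or regulate them: the subunits Nfkb1, Nfkb2, Rel, Rela and Relb, the inhibitors Nfkbia, Nfkbib and Nfkbie, the related nuclear protein Bcl3, and the ubiquitin-editing enzyme Tnfaip3. They were taken from the array by symbol, using every probe set annotated with exactly 1 of these gene symbols. A probe set is the group of short probes that reads 1 transcript. Of 10 genes, 9 were measured, each by 1 probe set, out of 11807 genes and 18003 probe sets with a single symbol. Nfkb1 is not analysed here.

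The study compared 2 cultures of CD4+ T cells from female C57BL/6J mice, to look for transcription factors induced by IL-27. Both cultures began as naive cells of spleen and lymph nodes and were stimulated through CD3 and CD28 with plate-bound antibodies for 60 h. The IL-27-labelled array holds RNA of cells that received recombinant mouse IL-27 at 25 ng/ml, and the untreated-labelled array that of cells without it (0 ng/ml). Each group has 1 array, so there is no replicate and no test, and the precision of each value is limited by that number. All values describe these 2 cultures. The labels do not give the number of mice behind each culture.

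NF-kappaB factors are dimers that bind kappaB sites in DNA and switch on genes of activation, survival and cytokine production. In resting T cells IkappaB proteins hold most dimers in the cytoplasm. Signals from the T cell receptor and CD28 activate the IKK kinase complex, which marks IkappaB for destruction and frees dimers of RelA and c-Rel. A slower route through the kinase NIK, which TNF family receptors can use, processes the precursor encoded by Nfkb2 into a partner of RelB. Many genes of the system are themselves NF-kappaB targets, among them Nfkbia and Tnfaip3, which close negative feedback loops.

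The intensities are RMA values on a linear scale, normalized between the arrays, and differences are log2 of the IL-27-treated over the untreated value. A background floor at an intensity of 29.5 was set from 43 genes of other tissues, and 9606 probe sets with 1 symbol exceeded it on at least 1 array, as did the brightest probe set of 6647 genes. The middle 50% of those genes differed by -0.20 to 0.22, with a median of 0.02. Directions follow the labels, although 3 genes that IL-27 is known to induce went against them by at least 1.60-fold. Socs3, a feedback gene of STAT3 signalling, read 186 on the IL-27-labelled array and 1122 on the untreated-labelled array. Il10 and Prdm1 lay under the floor on the IL-27-labelled array, at least 1.60-fold and 6.44-fold lower. Irf1 and Tbx21 were read for the same check. Irf1 was higher, at 794 on the IL-27-labelled array and 629 on the untreated-labelled array. Tbx21 also went against the labels, by less. It read 349 on the IL-27-labelled array and 408 on the untreated-labelled array, a difference of -0.23. Whether the 2 labels were exchanged was not tested, and with exchanged labels every difference below would keep its size and turn its sign, with higher and lower shares trading places. Of 8 listed markers of CD4+ T cells, 7 were measured and all 7 were above background. Their median difference was -0.15, from -0.69 for Cd5 to 0.21 for Cd4. Cd4 itself read 395 on the IL-27-labelled array and 343 on the untreated-labelled array. Summed intensities of the 7 were 11907 on the IL-27-labelled array and 13925 on the untreated-labelled array. Of B cell markers 0 of 4 were above background, of macrophage and dendritic cell markers 1 of 7 (Cd68), of NK cell markers 2 of 4 (Klrd1 and Gzma), and of CD8 markers 1 of 2 (Cd8b1). Summed intensities of the NK markers were 55.8 on the IL-27-labelled array and 173 on the untreated-labelled array. Those of the macrophage and dendritic cell markers were 118 on the IL-27-labelled array and 150 on the untreated-labelled array, and those of the CD8 markers 196 on the IL-27-labelled array and 137 on the untreated-labelled array. The sums for these other cell types include values under the floor, and every NK marker was under it on the IL-27-labelled array. The part of such cells in the differences below was not tested. In a bulk sample, fewer cells of a type and less RNA per cell cannot be told apart.

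All 9 probe sets exceeded the floor on both arrays. The system did not move as a block: 6 of the 9 genes were higher and 3 lower on the IL-27-labelled array, against 52.3% of all probe sets above background that were higher by any amount. Rel, Nfkbie, Nfkbia and Nfkb2 were at least 1.5-fold higher, which is 4 of 9 members against 5.31% of all probe sets above background. At a threshold of 2-fold, 0 members were higher, against 1.34% of all probe sets. Bcl3 alone was lower by that much, and it was also the only member at least 1.5-fold lower, against 2.64% of all probe sets at the first threshold and 7.38% at the second. The median over the 9 members was 0.54, beside 0.02 over all probe sets above background. The plot of levels by gene shows both values of every member.

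**Figure D1:**
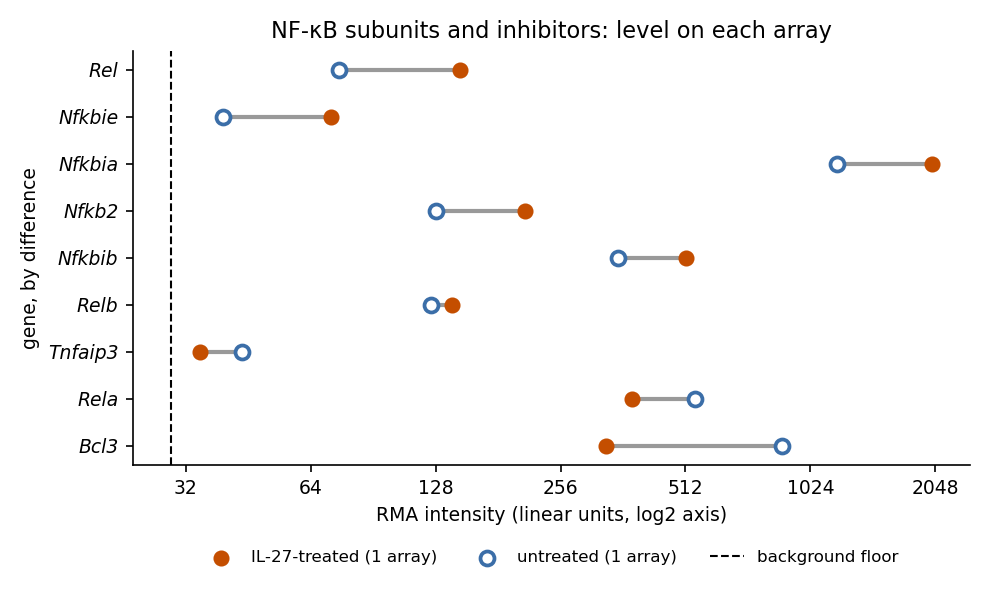
RMA intensity (linear units on a log2 axis) of the 9 measured genes on the IL-27-labelled array (filled) and the untreated-labelled array (open), 1 array each, ordered by the log2 difference. The treated value lies to the right for Rel, Nfkbie, Nfkbia, Nfkb2, Nfkbib and Relb and to the left for Tnfaip3, Rela and Bcl3, and all values lie to the right of the background floor (dashed line, 29.5).

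Among the subunits, Rel stood furthest apart. It encodes c-Rel, the subunit that T cells use for Il2 and for much of their proliferative response. Its intensity was 146 on the IL-27-labelled array and 74.9 on the untreated-labelled array, a difference of 0.96 or 1.95-fold, and 1.001 when each array's median was subtracted, which is just past 2-fold. Of all probe sets above background, 1.46% were higher by at least as much. Rela, which encodes p65, the main activating subunit of the rapid response, went the other way. It read 381 on the IL-27-labelled array and 539 on the untreated-labelled array, a difference of -0.50, and 9.66% of probe sets were lower by at least as much. The changes of Rel and Rela were thus 1.47 apart on the log2 scale, so the ratio of the Rel to the Rela reading was 2.76-fold higher on the IL-27-labelled array.

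The subunits of the NIK route were less far apart. Nfkb2, which encodes the precursor p100 and its product p52, had an intensity of 210 on the IL-27-labelled array and 128 on the untreated-labelled array, which is 1.64-fold higher. Relb, the usual partner of p52, differed by 0.17, with 140 on the IL-27-labelled array and 125 on the untreated-labelled array. Its difference lies inside the middle 50% of all genes above background, and 31.8% of probe sets were higher by at least as much. The p100 precursor also acts as an inhibitor, because its ankyrin repeats can hold RelB in the cytoplasm.

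**Figure D2:**
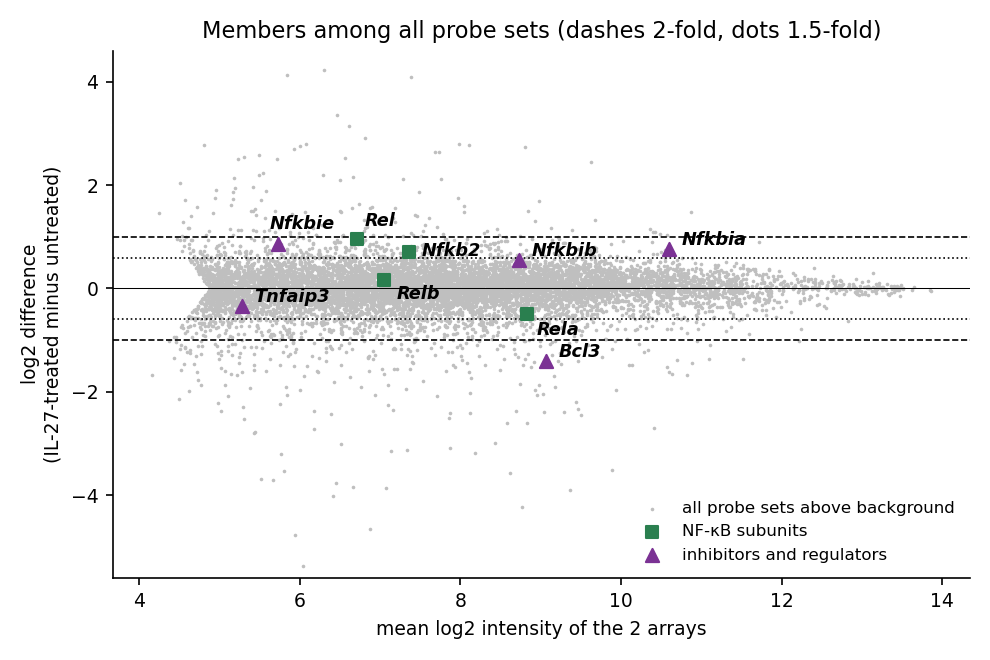
Log2 difference (IL-27-treated minus untreated) against the mean log2 intensity of the 2 arrays for the 9606 probe sets above background (grey), with the NF-kappaB subunits as squares and the inhibitors and regulators as triangles. Rel lies just under the upper 2-fold line (dashes), Nfkbie, Nfkbia and Nfkb2 between the 1.5-fold (dots) and 2-fold lines, and Bcl3 below the lower 2-fold line.

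The 3 classical IkappaB genes were all higher on the IL-27-labelled array, by 0.54 to 0.87. Nfkbia encodes IkappaB-alpha, the quickly resynthesized feedback inhibitor of RelA and c-Rel dimers. It read 2008 on the IL-27-labelled array and 1188 on the untreated-labelled array, a 1.69-fold difference. Nfkbie, which encodes IkappaB-epsilon, an inhibitor made later in the response, read 71.7 on the IL-27-labelled array and 39.3 on the untreated-labelled array, which is 1.82-fold higher. Its untreated value was only 1.33 times the floor. Nfkbib encodes IkappaB-beta, which is degraded more slowly. Its intensity was 514 on the IL-27-labelled array and 353 on the untreated-labelled array, 1.46-fold higher, by a probe set of a type that can share probes with other transcripts.

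Bcl3 and Tnfaip3 went against the classical inhibitors. Bcl3 is an atypical IkappaB protein of the nucleus, which binds dimers of p50 or p52 on DNA and can activate or repress their targets. Its intensity was 330 on the IL-27-labelled array and 875 on the untreated-labelled array, a difference of -1.41 or 2.65-fold lower, and 1.27% of probe sets were lower by at least as much. The change of Bcl3 was 2.16 below that of Nfkbia and 2.37 below that of Rel on the log2 scale. Tnfaip3 encodes A20, which removes ubiquitin chains needed to activate IKK. It lay close to the floor, with 34.5 on the IL-27-labelled array and 43.8 on the untreated-labelled array, or 1.17 and 1.49 times the floor. Its difference was -0.34, and 15.8% of probe sets were lower by at least as much. So close to background, a difference of more than 1.49-fold on the lower side could not have been measured.

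Because several of these genes are known to answer to NF-kappaB themselves, their start regions were searched for the kappaB consensus, the standard motif with variable central positions, on both strands. The windows are RefSeq's for mouse build GRCm38.p6 and run from 250 bases before to 50 bases after each annotated start. A window was found for 8 of the 9 measured genes and none for Relb, which is only named. A match was present for 6 of the 8 genes: Rel, Nfkbie, Nfkbia, Nfkb2, Tnfaip3 and Bcl3. Over all 32851 windows, 4.51% hold a match, and over 5479 genes above background with a window, 6.08% do. The windows of Rela and Nfkbib held 0 matches. So the 4 genes at least 1.5-fold higher each have a match, but so do Bcl3 and Tnfaip3, which were lower, and a match is a description of letters and no evidence of binding.

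The 250 bases before the start of Rel, Nfkbia and Nfkbie are shown because these genes lead the higher side and each has a match upstream of the start. They are written 5′ to 3′ on the strand of the gene, and capitals mark matches to the kappaB consensus. Rel lies on the minus strand at chr11:23770970-23771219, Nfkbia on the minus strand at chr12:55492648-55492897 and Nfkbie on the plus strand at chr17:45555450-45555699.
Rel: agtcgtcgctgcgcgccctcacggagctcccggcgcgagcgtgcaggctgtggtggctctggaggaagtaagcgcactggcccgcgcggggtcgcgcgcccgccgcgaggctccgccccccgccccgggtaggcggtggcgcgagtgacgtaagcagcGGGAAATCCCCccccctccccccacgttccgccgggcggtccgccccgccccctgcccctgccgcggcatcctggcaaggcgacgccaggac
Nfkbia: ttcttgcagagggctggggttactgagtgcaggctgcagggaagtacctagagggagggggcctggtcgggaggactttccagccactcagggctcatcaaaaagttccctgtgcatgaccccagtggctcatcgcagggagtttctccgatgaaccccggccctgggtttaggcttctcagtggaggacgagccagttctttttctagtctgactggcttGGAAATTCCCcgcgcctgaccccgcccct
Nfkbie: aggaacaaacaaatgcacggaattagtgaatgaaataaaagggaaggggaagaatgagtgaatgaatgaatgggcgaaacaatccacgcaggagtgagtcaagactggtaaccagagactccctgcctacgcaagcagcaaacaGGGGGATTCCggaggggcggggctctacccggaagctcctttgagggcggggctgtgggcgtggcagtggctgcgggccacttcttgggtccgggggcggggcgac
The match ends 20 bases before the start in Nfkbia, 82 bases before it in Rel and 97 bases before it in Nfkbie. In Rel the capitals cover 11 bases, because 2 overlapping matches share all but their end letters.

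The matches of Nfkb2, Tnfaip3 and Bcl3 are shown as stretches of 30 bases, to set genes that were lower beside one that was higher. The Nfkb2 stretches lie on the plus strand at chr19:46304688-46304717 and chr19:46304716-46304745, in the first of its 3 windows. Those of Tnfaip3 lie on the minus strand at chr10:19015516-19015545 and chr10:19015403-19015432, and that of Bcl3 on the minus strand at chr7:19822734-19822763, where the match begins 3 bases inside the transcript. The capitals have the same meaning as above.
Nfkb2, distal: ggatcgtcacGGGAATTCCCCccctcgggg
Nfkb2, proximal: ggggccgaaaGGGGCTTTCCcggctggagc
Tnfaip3, distal: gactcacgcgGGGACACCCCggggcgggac
Tnfaip3, proximal: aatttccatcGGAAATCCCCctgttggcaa
Bcl3: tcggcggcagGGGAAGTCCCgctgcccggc
The windows at the other starts of Nfkb2 also hold matches, while the other start of Tnfaip3 holds 0. The palindromic STAT motif TTCNNNGAA, which reads the same on both strands and does not overlap a kappaB match here, was present in 1 of the 8 genes, Nfkb2, and in 8.30% of all windows. The Bcl3 window held 0 matches to it.

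**Figure D3:**
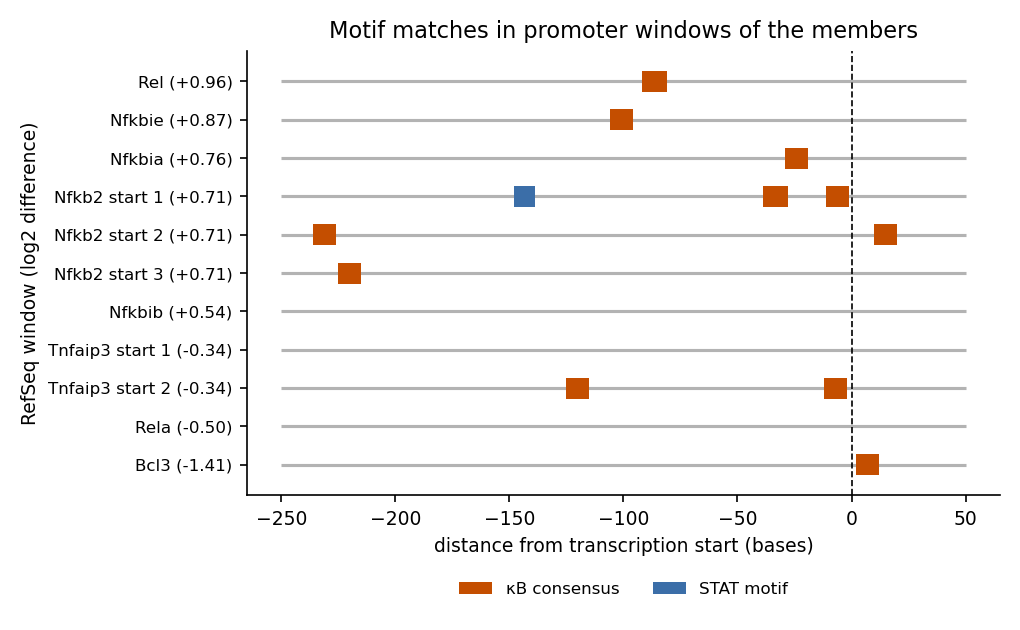
Matches to the kappaB consensus (orange) and to TTCNNNGAA (blue) in the RefSeq windows of 8 member genes, by distance in bases from the transcription start (dashed line), with 1 line per annotated start and starts numbered by coordinate. Genes run from the most positive log2 difference at the top to the most negative at the bottom, and both ends of the order hold kappaB matches.

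The 333 genes above background with a kappaB match had a median difference of -0.01, beside 0.02 for the 5146 genes without one. Of those with a match, 15 (4.50%) were lower and 5 higher by 2-fold or more, and of those without one, 130 (2.53%) were lower and 72 higher.

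The lists of genes that act upstream of the subunits had medians near 0. By the brightest probe set of each gene, 1.55% of all genes above background were higher and 2.78% lower by 2-fold or more, and 5.22% were higher and 7.33% lower by 1.5-fold or more. In the list of the IKK complex and the route to it from the T cell receptor, 15 of 21 genes were measured and 14 were above background. Of those 14, 0 passed 1.5-fold in either direction, and the median was 0.01. The kinase genes Map3k7 (TAK1) and Prkcq (PKC-theta, which links the T cell receptor to IKK) differed by 0.54 and -0.43, and the catalytic kinase gene Ikbkb by -0.30, with -0.23 and -0.08 from its other probe sets. Ube2v1, a cofactor of ubiquitin chain assembly, differed by -0.29, the TNF receptor adaptor Tradd by -0.26, and the TAK1-binding protein gene Tab3 by 0.25. The other 2 probe sets of Map3k7 gave 0.16 and 0.31. The scaffold subunit Ikbkg, named after its values were seen, had the same intensity on both arrays, 178, while its dimmer probe set differed by -0.41.

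In the list of the NIK route and TRAF adaptors, 9 of 10 genes were measured and all 9 were above background. The median was -0.16, and 2 genes were at least 1.5-fold lower, against 7.33% of all genes above background. These were Birc3 and Birc2, the cIAP ubiquitin ligases that keep NIK low in resting cells. Birc3 read 693 on the IL-27-labelled array and 1102 on the untreated-labelled array, 1.59-fold lower, though its other probe set gave -0.25. Birc2 read 277 on the IL-27-labelled array and 417 on the untreated-labelled array, a difference of -0.59. Map3k14, which encodes NIK, differed by -0.52 and by -0.61 in its 2 probe sets, close to the floor, and the adaptors Traf1 and Traf5 by -0.51 and 0.51. Otud7b, a deubiquitinase of TRAF3, differed by 0.27.

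Of 11 listed partners of A20 and other ubiquitin-editing genes, 7 were measured and all 7 were above background. They stayed under 1.5-fold and had a median of -0.06. Tax1bp1 and Tnip2, which cooperate with A20, differed by -0.46 and -0.45, and Otulin, which removes linear ubiquitin chains, by 0.30. The other probe set of Tax1bp1 gave -0.10. Zranb1 differed by 0.25 and 0.42 in its probe sets, Tnip1 by 0.12 and the ligase gene Itch by -0.10. Of the other IkappaB-like genes, the nuclear protein gene Nfkbiz, a relative of Bcl3, differed by 0.13 and Nfkbil1 by -0.09. Bcl3 was thus the only IkappaB-family gene measured here that was lower by 2-fold.

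Known NF-kappaB targets of T cells spread widely to both sides. Of 44 genes listed, 41 were measured and 37 were above background. Of those 37, 6 were higher and 5 lower by 2-fold or more, against 1.55% and 2.78% of all genes above background. Cd83, Csf2 and Il21, which are among these, exceeded the floor only on the array where they were higher. The median was 0.15, or -0.004 with the mean of the probe sets of each gene. The c-Rel target Il2 read 1853 on the IL-27-labelled array and 338 on the untreated-labelled array. Csf2, which encodes GM-CSF, read 155 on the IL-27-labelled array and lay under the floor on the untreated-labelled array, at least 5.28-fold higher. The activation marker Cd83 was at least 11.5-fold higher on the same terms, and the death ligand Fasl was 4.32-fold higher. Ebi3 and Cd44, named after their values were seen, were 2.96-fold and 2.25-fold higher, and the other probe set of Cd44 gave 0.89, under 2-fold.

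On the lower side, Il21, another cytokine gene that c-Rel can drive, lay under the floor on the IL-27-labelled array and read 384 on the untreated-labelled array, at least 13.0-fold lower. Ier3, an early stress-response gene, was 3.93-fold lower. Ccl4, Cflar and Junb, named after their values were seen, were lower by 2.16-fold, 2.12-fold and 2.02-fold. The other 3 probe sets of Cflar gave -0.80 to -0.62, all under 2-fold. Cytokine targets of c-Rel lay on both sides, and Rel itself was 1.95-fold higher. Many of these targets also answer to other factors, and the part of c-Rel in their differences was not tested.

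**Figure D4:**
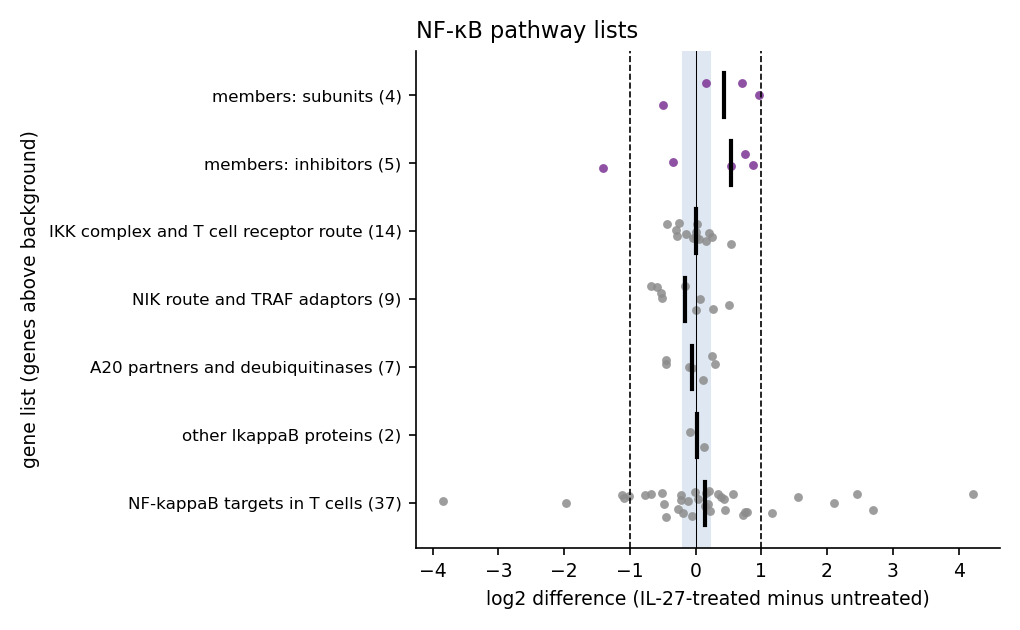
Log2 difference (IL-27-treated minus untreated) of each gene above background in the 2 groups of members (purple) and 5 lists of other pathway genes (grey), with list medians as black bars, 2-fold as dashed lines and the middle 50% of all genes above background shaded. The 4 lists other than targets have medians between -0.16 and 0.02, the members' medians are 0.44 for subunits and 0.54 for inhibitors, and the targets run from -3.85 to 4.22.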

How the data were processed

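RNA from 2 cultures was labelled with biotin from 100 ng of total RNA with a 3' in vitro transcription kit and hybridized to Affymetrix arrays, per the labels' protocols. The deposited table holds, for each array, a linear-scale intensity of every probe set, made by the authors with RMA, per the submitters' processing notes, without version or settings. RMA gives arrays nearly equal intensity distributions, which hides changes in total RNA, and it shrinks differences between low values.

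Of 22716 probe sets, 18003 had 1 symbol, 287 had several and 4426 had none listed in the platform annotation. The symbols of all 9 members matched a RefSeq gene table by gene identifier. Intensities were converted to log2 with no pseudocount. The floor is percentile 95 of 43 measured genes (of 48 listed) of other tissues. Genes outside the members were read by their brightest probe set (highest mean log2 level). Where 1 array was below the floor, a lower bound of the fold is given, computed against the floor. There was 1 array per group, so no test was run. Probe sets of the same gene, both above the floor on both arrays, disagreed by a median of 0.16 on the log2 scale (3791 pairs, 1984 genes), which covers probe error only.

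The members and lists were chosen with earlier results of these data known. Named were all members and, of each list, up to 6 genes with the largest absolute difference. Other genes are marked as named after their values were seen. The alternatives changed the scaling, the pseudocount, the filter, the threshold and the choice of probe set. Calls at 2-fold were tested on simulated data with planted changes larger than 2-fold. Calls at 1.5-fold and changes as small as those of most members were not tested in this way. Python 3.11.15, pandas 2.3.3, statsmodels 0.14.6 and matplotlib 3.10.9 were used.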

Additional observations from a re-analysis of the deposited data

How the results depend on the processing

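No paired analysis was possible because each group has 1 array, and for the same reason no replicate could be left out. Subtracting each array's median added 0.04 to every log2 difference, which took Rel just past 2-fold, to 1.001, and so gave 1 member at least 2-fold higher in place of 0. With the 1.5-fold threshold 4 members were higher and 1 lower, and those counts were the same after median subtraction, after loess (span 0.3), with a pseudocount of 16 and with values below the floor raised to it. The pseudocount moved Nfkbie, a dim gene, to 0.66. In all, the 9 differences recomputed under those 4 settings kept their sign in 36 of 36 cases, and 35 moved by less than the median disagreement between probe sets of a gene, 0.16. Raising values to the floor could change no difference or count, because all 9 probe sets exceeded it on both arrays. A pseudocount cannot turn a sign. The 0.04 added by median subtraction was smaller than the smallest member difference, 0.17 for Relb, so only loess could have turned one. That 0.04 was also below 0.16, so only loess and the pseudocount could have moved a difference by more than that. Bcl3 stayed at least 2-fold lower under each of the 4 settings, between -1.45 and -1.37. The members' median ranged from 0.50 to 0.58 over all settings, and all 25 recomputed list medians moved by less than 0.16, but the median of the targets, 0.15, turned to -0.004 with the mean of probe sets and was 0.094 with the filter on both arrays. The medians of the IKK list and of the other IkappaB genes, both near 0, were -0.03 and -0.01 after loess, and that of the IKK list was also -0.01 with the mean of probe sets. Leaving out probe sets of the types that can share probes between transcripts, of 1 gene or of several, left 5 members and the same 2-fold counts. It removed Nfkbie and Nfkb2, so of the 4 members at least 1.5-fold higher only Rel and Nfkbia remained. Low signal limits Tnfaip3 and Nfkbie most, and 1 probe set per member gives no internal check of any difference.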

Other observations

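Some of the target genes gave values that depend on the probe set read. The brightest probe set of Il2ra, the high-affinity IL-2 receptor chain, differed by 0.56 and its other probe set by -0.85. For Bcl2l1, which encodes the survival protein Bcl-xL, the brightest gave 0.15 and the other 2 gave -0.28 and -0.18. For Irf4, a factor of activated T cells, the values were -0.27 and -0.86. These genes were named after their values were seen.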
